A study of Mus musculus with 10 samples.

Results

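The nuclear genes of respiratory complexes II to V were followed in muscle stem cells (MuSCs, also called satellite cells) that had lost the Mg2+-permeable channel kinase TRPM7. Members were chosen by gene symbol alone: Sdha to Sdhd and the Sdhaf assembly factors, all symbols beginning with Uqcr, Uqcc, Cox and a digit, or Atp5, and Cyc1 and Cycs. Of the 24620 entries of the deposited table, 64 met this rule, 8 of them for complex II, 12 for complex III, 1 for cytochrome c, 26 for complex IV and 17 for complex V. A further 8 entries with a symbol ending in -ps, the mark of a pseudogene, were left out by the rule, and the members Cox20b and Cox6c2 are processed pseudogenes in the GENCODE M21 annotation. The genes that passed the filter on low counts numbered 7753, and 53 of the 64 members were among them.

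MuSCs came from adult C57BL6 mice of both sexes, either control (Trpm7+/+; Pax7CreERT2/+; Rosa26YFP) or Trpm7 cKO (Trpm7 flox/flox; Pax7CreERT2/+; Rosa26YFP). Both genotypes carried 1 Pax7CreERT2 allele, which drives tamoxifen-dependent recombination in Pax7-expressing cells, and the YFP reporter, and both received tamoxifen and an injection of cardiotoxin (CTX), a snake venom toxin that destroys myofibres. YFP-positive cells were sorted 3 days after injury, 3000 cells for each of 5 control and 5 Trpm7 cKO libraries, and sequenced from the 3′ end by CEL-Seq2, which tags each molecule with a unique molecular identifier (UMI). The comparison asks how loss of Trpm7 changes the transcripts of activated MuSCs.

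Control libraries held 914361 to 1097709 counts and Trpm7 cKO libraries 205986 to 581121, and depth cannot be told apart from genotype. In a bulk library, fewer cells of a type and less RNA per cell cannot be told apart either. Trpm7 itself was read at its 3′ end, at 66.6 to 90.1 normalized CPM (counts scaled to a common library size, the unit of all levels below) in control and 46.4 to 101 in Trpm7 cKO libraries, which overlap and do not check the deletion. The sorted cells carried MuSC transcripts in both genotypes: 19 MuSC identity markers summed to 3033 to 3547 CPM in control and 2987 to 5294 CPM in Trpm7 cKO libraries. Of 17 tested markers, 10 were higher and 3 lower at an adjusted p-value below 0.05, beside 24.6% and 24.1% of all tested genes. The labels do not say that libraries come from separate animals, and the names of Trpm7 cKO replicates 4 and 5 share a number, so p-values measure the spread between these libraries. Levels are TMM-normalized CPM. Because CEL-Seq2 counts 3′ ends once per molecule, levels were not divided by transcript length.

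The mitochondrial respiratory chain passes electrons from succinate through succinate dehydrogenase (complex II) to ubiquinone, from there through the cytochrome bc1 complex (complex III) and the soluble carrier cytochrome c to cytochrome c oxidase (complex IV), where oxygen is reduced. Complexes III and IV pump protons, and ATP synthase (complex V) lets them flow back through its membrane rotor to make ATP. Complex II is encoded by the nucleus alone, while complexes III, IV and V also hold subunits made from mitochondrial DNA. Quiescent MuSCs have few mitochondria, and the content rises on activation and during differentiation into muscle.

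More members were lower than higher in Trpm7 cKO MuSCs. Of the 53 tested members, 25 were lower, 3 were higher and 25 were not called at an adjusted p-value below 0.05 in the quasi-likelihood test of edgeR. In the same test 24.1% of all tested genes were lower and 24.6% were higher. Past a further threshold of 1.5 on the log2 scale, 4 members were lower (Atp5g3, Sdhaf4, Cox15 and Uqcrfs1), against 3.53% of all tested genes, and 0 were higher, against 8.49%. At adjusted p below 0.05 without that fold threshold, the 3 higher members were all subunits of complex V. In 21 members every Trpm7 cKO library lay below every control library (17.9% of all tested genes), and in 2 members every Trpm7 cKO library lay above (16.6% of all tested genes). The median log2 fold change of the tested members was -0.42, beside -0.01 for all tested genes, with 45 members below 0 and 8 above.

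Most of these calls were lost with leukocyte markers in the fit. The mean log2 CPM of the 22 tested leukocyte markers was added as a covariate beside genotype. All 22 markers were higher in Trpm7 cKO libraries, so that this covariate and genotype overlap. In that fit 2 members kept a lower call (Atp5g3 and Uqcrq) and 0 were higher. The median of the members was -0.34, beside -0.04 for all tested genes. The share of all tested genes called in that fit was not counted. The lost calls are therefore not shown to be particular to the members. Of the members past both thresholds, Uqcrfs1 was then at -1.14 (adjusted p = 0.187 from edgeR), Sdhaf4 at -1.14 (adjusted p = 0.4) and Cox15 at -0.86 (adjusted p = 0.65). Sdhaf2 (-0.06), Sdha (-0.02), Atp5h (-0.18) and Atp5e (0.24) were near 0, Cyc1 was at -0.80, Atp5b at -0.51, Atp5g1 at -0.41, Atp5a1 at -0.34 and Cycs at -0.34, and Atp5g2 was at 1.40, all without a call. With counts thinned to the smallest library, 15 of the 25 lower calls were kept, of 43 members that could be tested.

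**Figure D1:**
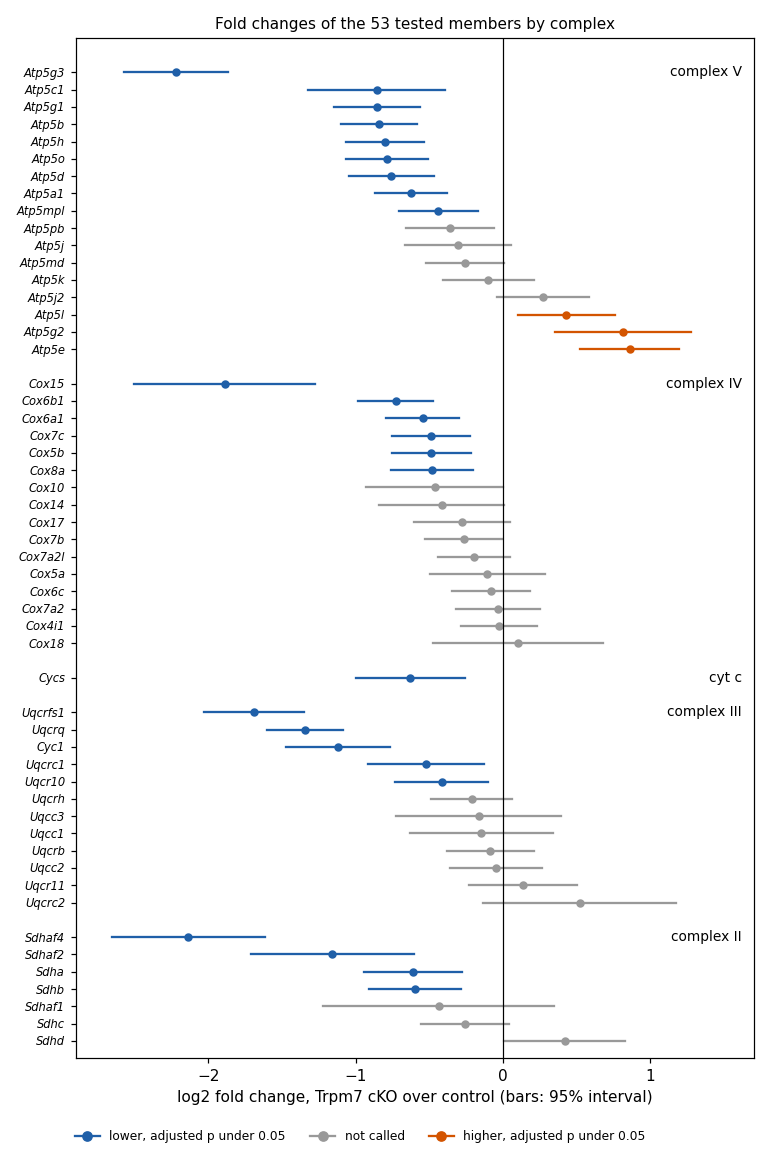
Log2 fold change (Trpm7 cKO over control, horizontal axis) of the 53 tested members, grouped by complex and ordered within each, with 95% intervals. Blue marks the 25 members lower and orange the 3 members higher at an adjusted p-value below 0.05, and grey marks the 25 members without a call.

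Summed over its members, every complex was lower in Trpm7 cKO libraries, with no overlap between genotypes. Complex II was at 726 ± 64.2 CPM (SD, n = 5) in control and at 487 ± 72.7 CPM (SD, n = 5) in Trpm7 cKO libraries (log2 ratio -0.58). Complex III was at 3277 ± 264 and 1806 ± 82.4 CPM (SD, n = 5 each), a log2 ratio of -0.86. Complex IV showed the smallest log2 ratio of the sums, -0.36, at 5522 ± 209 and 4299 ± 252 CPM (SD, n = 5 each). The sums follow the genes highest in level, and by the median of members the order differed, with -0.19 for complex III and -0.35 for complex IV. In complex III, Uqcrq was at means of 1194 and 469 CPM and Uqcrfs1 at 750 and 230 CPM in control and Trpm7 cKO libraries. Complex V, at 9618 ± 1060 and 4970 ± 208 CPM (SD, n = 5 each), had a log2 ratio of -0.95, and without Atp5g3 alone the ratio was -0.44. All members together made up 19219 ± 1493 CPM in control and 11613 ± 343 CPM in Trpm7 cKO libraries (SD, n = 5 each), or 15150 ± 772 and 10744 ± 417 CPM without Atp5g3. The makeup of the sum differed as well: complex IV took 26.8 to 31.1% of it in control and 35.3 to 40.1% in Trpm7 cKO libraries, and complex V 48.0 to 52.7% and 40.8 to 44.1%. Complex III took 16.4 to 17.6% and 15.3 to 16.0%, while the ranges of complex II overlapped, at 3.56 to 4.01% and 3.17 to 4.85%. Atp5g3 alone took 17.6 to 24.4% of the sum in control and 5.62 to 9.26% in Trpm7 cKO libraries. The shares of all complexes depend on this gene, and shares without it were not computed.

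**Figure D2:**
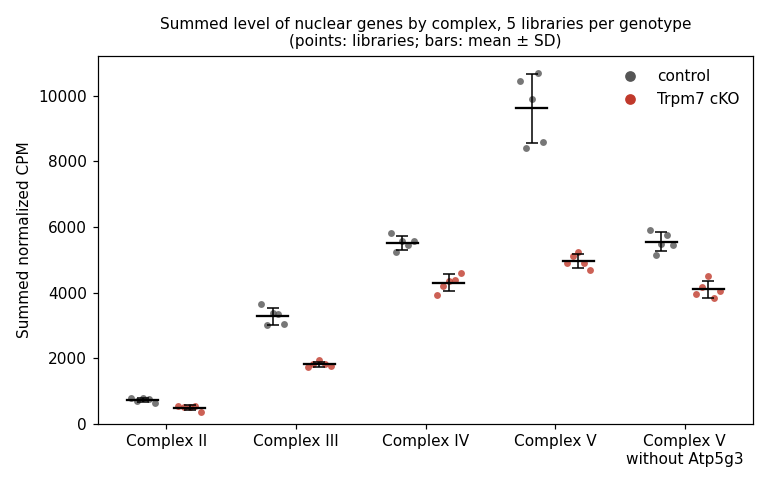
Summed normalized CPM of the members of each complex (vertical axis) in 5 control (grey) and 5 Trpm7 cKO (red) libraries, with mean and SD. Within each complex all Trpm7 cKO libraries lie below all control libraries, and the control libraries of complex V spread from 8406 to 10715 CPM but from 5151 to 5908 CPM once Atp5g3 is left out.

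Complex II had 4 of 7 tested members lower and 0 higher, beside 24.1% and 24.6% of all tested genes. Its median log2 fold change was -0.60. The catalytic pair and the assembly factors Sdhaf4 and Sdhaf2 were lower, and the membrane anchors were not called. Sdhaf4, an assembly factor that helps join the flavoprotein Sdha to the iron-sulphur subunit Sdhb, stood at 101, 66.1, 121, 119 and 75.2 CPM in the control libraries and at 22.2, 23.9, 14.6, 29.8 and 5.52 CPM in the Trpm7 cKO libraries. The highest Trpm7 cKO library was below the lowest control library. The levels of Sdhaf4 in Trpm7 cKO replicates 3 and 5 rested on 4 counts and 1 count. The fitted log2 fold change was -2.14 (standard error, SE, 0.26, adjusted p = 2.06e-06 from edgeR), or 4.39-fold lower. The gene lies on chromosome 1 from 23995939 to 24005656 (GRCm38). Sdhaf2, which is needed for attaching the flavin cofactor to Sdha, was at 35.8, 26.8, 39.7, 37.1 and 30.1 CPM in control and at 12.9, 22.1, 7.31, 18.2 and 5.52 CPM in Trpm7 cKO libraries. These groups did not overlap either, and the log2 fold change was -1.16 (SE 0.28, adjusted p = 0.00205 from edgeR). The level of Sdhaf2 was low, and in Trpm7 cKO replicate 5 the CPM of 5.52 rested on 1 count.

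Sdha, the flavoprotein that oxidises succinate, was measured at 226, 201, 254, 251 and 196 CPM in control libraries. In Trpm7 cKO libraries it was measured at 185, 167, 102, 159 and 99.3 CPM, all below control, with replicates 3 and 5 lowest. Its difference of -0.61 on the log2 scale (SE 0.17, adjusted p = 0.00563 from edgeR) was -0.40 without these 2 libraries. Sdhb, whose iron-sulphur clusters pass the electrons on, was at 90.3 to 111 CPM in control and 59.6 to 87.7 CPM in Trpm7 cKO libraries, giving a log2 fold change of -0.60 (SE 0.16, adjusted p = 0.00422 from edgeR). With thinned counts Sdha (adjusted p = 0.144) and Sdhb (adjusted p = 0.0824) were not called in edgeR. The anchors that hold the haem and the quinone site did not pass the test: Sdhc had a log2 fold change of -0.26 (95% interval -0.56 to 0.04) and Sdhd of 0.42 (0.01 to 0.83, adjusted p = 0.107 from edgeR). Sdhaf1, at 15.7 ± 4.85 and 11.3 ± 8.09 CPM (SD, n = 5 each), was not called either, and Sdhaf3, with at most 27 counts in a control and 6 in a Trpm7 cKO library, was not tested. Both act in giving Sdhb its iron-sulphur clusters.

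Complex III had 5 of 12 tested members lower and 0 higher, beside 24.1% and 24.6% of all tested genes. Its median log2 fold change was -0.19. The lower members included both nuclear-encoded redox subunits, the Rieske protein Uqcrfs1 and cytochrome c1. Uqcrfs1, whose iron-sulphur cluster takes an electron from ubiquinol, was at 811, 585, 911, 905 and 536 CPM in control and at 281, 225, 227, 234 and 182 CPM in Trpm7 cKO libraries. Control replicates 2 and 5 were the lowest controls and still lay well above all 5 Trpm7 cKO libraries. The log2 fold change was -1.69 (SE 0.17, adjusted p = 2.58e-07 from edgeR), or 3.23-fold lower. The gene lies on chromosome 13 from 30540308 to 30545362. Cyc1, which carries the haem that reduces cytochrome c, was at 148, 141, 150, 178 and 159 CPM in control and at 51.7, 75.5, 113, 66.3 and 55.2 CPM in Trpm7 cKO libraries. Trpm7 cKO replicate 3 came nearest to the controls without reaching them, and the log2 fold change was -1.12 (SE 0.18, adjusted p = 3.97e-05 from edgeR).

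Uqcrq, a small subunit next to cytochrome b, had the highest level in the complex, at 1350, 1100, 1218, 1192 and 1108 CPM in control libraries. It was at 451, 466, 435, 548 and 447 CPM in Trpm7 cKO libraries, all below control, with replicate 4 apart from the others. Its fitted log2 fold change was -1.34 (SE 0.13, adjusted p = 1.47e-07 from edgeR), and with the leukocyte covariate it was -1.42 (adjusted p = 0.0229 from edgeR). The other 2 lower calls were close to the threshold. Uqcrc1, a core protein, had a log2 fold change of -0.52 (adjusted p = 0.0374 from edgeR), which overlapped between genotypes at 52.1 to 78.6 and 36.8 to 66.2 CPM. Uqcr10, a small membrane subunit, had a log2 fold change of -0.42 (adjusted p = 0.0394 from edgeR), at 190 to 234 and 88.3 to 191 CPM, and with the leukocyte covariate it was at 0.16 (adjusted p = 0.874). Leaving out single libraries ended these calls: that of Uqcrc1 without any one of control replicates 1 to 4 or Trpm7 cKO replicates 1 to 3 (adjusted p between 0.0503 and 0.106 in edgeR), and that of Uqcr10 without control replicates 1 to 4 or Trpm7 cKO replicates 1 or 5 (between 0.055 and 0.0974).

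The remaining 7 members of complex III were not called. The hinge protein Uqcrh, which binds cytochrome c1, had a log2 fold change of -0.21 (95% interval -0.49 to 0.06). The small subunits Uqcrb (-0.09) and Uqcr11 (0.14) and the assembly factors Uqcc1 (-0.15), Uqcc2 (-0.05) and Uqcc3 (-0.17), which act on cytochrome b, had values near 0. The second core protein, Uqcrc2, had few counts, at 12.5 ± 2.05 and 20.4 ± 9.86 CPM (SD, n = 5 each), and an interval from -0.13 to 1.18. Pdzd9 overlaps the 3′ end of Uqcrc2 on the opposite strand. Within 1 complex, fold changes thus ranged from -1.69 to 0.52, and the 95% intervals of Uqcrfs1 (-2.03 to -1.35), Uqcrq (-1.60 to -1.08) and Cyc1 (-1.48 to -0.77) did not reach those of Uqcrh and Uqcrb (-0.38 to 0.21).

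Cytochrome c, made from Cycs, carries electrons between complexes III and IV and is also a trigger of apoptosis when released. Cycs was at 84.5, 58.9, 86.9, 69.3 and 78.7 CPM in control and at 38.8, 55.2, 51.2, 43.1 and 66.2 CPM in Trpm7 cKO libraries. Trpm7 cKO replicate 5 lay above control replicate 2, so the groups overlapped. On the log2 scale the change was -0.63 (SE 0.19, adjusted p = 0.00954 from edgeR), and it was not called with thinned counts (-0.60, adjusted p = 0.0644 from edgeR). The bases before its transcription start are shown because 2 motifs searched here match in them. Capitals mark, in order, the cAMP response element TGACGTCA and GCATGCGC, a core of the site of nuclear respiratory factor 1 (NRF1), in the sequence of RefSeq on GRCm38.p6.
Cycs, chr6:50566570-50566819, minus strand: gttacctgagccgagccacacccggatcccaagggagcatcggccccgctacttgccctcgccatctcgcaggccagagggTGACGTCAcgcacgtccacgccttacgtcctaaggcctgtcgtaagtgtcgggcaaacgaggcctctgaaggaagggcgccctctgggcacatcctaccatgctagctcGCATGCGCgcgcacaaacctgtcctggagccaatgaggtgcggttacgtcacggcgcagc

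Complex IV had 6 of 16 tested members lower and 0 higher, beside 24.1% and 24.6% of all tested genes. Its median log2 fold change was -0.35. The lower members were 5 structural subunits and Cox15, an enzyme that makes the haem of the complex and had the lowest fold change. Cox15, which with Cox10 converts haem b to haem a, was at 94.5, 70.2, 133, 142 and 60.2 CPM in control and at 44.3, 20.2, 11.0, 29.8 and 16.6 CPM in Trpm7 cKO libraries. The highest Trpm7 cKO library, replicate 1, lay below the lowest control library, replicate 5. The levels of Trpm7 cKO replicates 3 and 5 rested on 3 counts each. The log2 fold change was -1.89 (SE 0.31, adjusted p = 8.43e-05 from edgeR). Entpd7 overlaps the 3′ end of Cox15 on the opposite strand, and the strand setting of the counting is not given in the sources used here. The counts of Cox15 may therefore depend on how reads in the overlap were assigned. Cox10 (42.6 ± 8.75 and 29.97 ± 8.73 CPM, SD, n = 5 each) had a log2 fold change of -0.46 and was not called (adjusted p = 0.114 from edgeR).

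Among the structural subunits, Cox6b1, on the side facing the intermembrane space, was at 760, 642, 682, 692 and 638 CPM in control and at 362, 399, 384, 467 and 453 CPM in Trpm7 cKO libraries, giving a log2 fold change of -0.73 (SE 0.13, adjusted p = 1.13e-04 from edgeR). Cox6a1, the form of subunit VIa found in most tissues, was at 616 to 792 and 469 to 541 CPM, a log2 fold change of -0.54 (adjusted p = 0.00141 from edgeR). Cox7c (676 to 886 and 468 to 640 CPM), the highest in level of the complex, and the zinc-binding Cox5b (289 to 379 and 190 to 245 CPM) both had a log2 fold change of -0.49. Cox8a had -0.48, and its groups touched, at 389 to 573 and 303 to 394 CPM. In all of these but Cox8a the genotypes did not overlap. Of the last 500 transcript bases of these genes, where CEL-Seq2 reads fall, 43.2% of 31-base words of Cox7c, 22.6% of Cox6a1 and 21.7% of Cox5b occur in other genes, so that their counts depend on how reads with several matches were treated.

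Other subunits of the same enzyme were not called. Cox4i1, a large membrane subunit that is often used as a marker of mitochondria, was at 565, 562, 623, 567 and 601 CPM in control and at 495, 545, 632, 517 and 695 CPM in Trpm7 cKO libraries. Its difference of -0.03 on the log2 scale had a 95% interval from -0.29 to 0.23. Cox7a2 was at 182 ± 14.3 and 180 ± 30.3 CPM (SD, n = 5 each; interval -0.32 to 0.25), and Cox6c at 519 ± 47.3 and 492 ± 61.9 CPM (SD, n = 5 each; interval -0.34 to 0.18). These intervals hold for the TMM scaling. The signs of the 3 values changed with total counts only. Scaled to the MuSC identity markers they were -0.37 for Cox4i1, -0.37 for Cox7a2 and -0.39 for Cox6c, without a call. The median of all tested genes was -0.36 under that scaling, close to these 3 values. Vps13b overlaps the 3′ end of Cox6c on the opposite strand. Cox7a2l had a log2 fold change of -0.20, Cox7b of -0.27 and Cox5a of -0.11, without a call. Of the assembly factors, the copper chaperone Cox17 had -0.28, Cox14 -0.42 and Cox18, which inserts a core subunit into the membrane, 0.10, also without a call. The value of Cox14 rested on Trpm7 cKO replicate 5, which was at 138 CPM when the other 4 were at 48.0 to 71.2 CPM, and without it Cox14 was called lower.

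The other 10 members of complex IV did not pass the filter. Cox6a2, Cox7a1 and Cox8b, forms typical of heart and mature skeletal muscle, had at most 5, 6 and 3 counts in a library. Their counterparts Cox6a1, Cox7a2 and Cox8a took 98.6 to 100%, 96.5 to 98.9% and 95 to 100% of the counts of each pair over all 10 libraries, so that either genotype used the forms found in most tissues. Cox4i2 had at most 1 count and Cox6b2, the form known from testis, at most 14. Cox11, a copper factor, and the pseudogene Cox20b were listed at 0 in all libraries. Tom1l1 overlaps the 3′ end of Cox11 on the opposite strand, so that the count of 0 for Cox11 may depend on how overlapping genes were counted. Cox6c2 had at most 1 count, Cox19 at most 18 in control and 7 in Trpm7 cKO libraries, and Cox16 at most 3. The last 500 bases of Cox16 lie wholly within another gene on the same strand, Gm20498, so that its count is uncertain.

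Complex V had 9 of 17 tested members lower and 3 higher, beside 24.1% and 24.6% of all tested genes. Its median log2 fold change was -0.44. Atp5g3, one of 3 genes for the c subunit that forms the rotor ring, was both the highest in level of all members and the lowest in fold change. It had 4544, 3255, 4443, 4953 and 3145 CPM in control and 941, 944, 731, 1084 and 646 CPM in Trpm7 cKO libraries. Even the lowest control library was far above the highest Trpm7 cKO library. The counts behind these levels were 2717 to 4934 in control and 117 to 654 in Trpm7 cKO libraries. Its fitted log2 fold change was -2.22 (SE 0.18, adjusted p = 1.92e-08 from edgeR), or 4.65-fold lower, and with the leukocyte covariate it was -1.80 (adjusted p = 0.0304 from edgeR). Atp5g3 alone made up 17.6 to 24.4% of the summed CPM of all 64 members in control and 5.62 to 9.26% in Trpm7 cKO libraries. It lies on chromosome 2 from 73908447 to 73911326, and none of its last 500 transcript bases is shared with another gene in words of 31 bases.

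The 3 c subunit genes encode the same mature protein behind different import sequences, and they did not move together. Atp5g1 was at 273, 213, 223, 238 and 197 CPM in control and at 107, 147, 139, 119 and 121 CPM in Trpm7 cKO libraries, giving a log2 fold change of -0.85 (SE 0.15, adjusted p = 9.35e-05 from edgeR). Atp5g2 was at 28.8, 28.9, 31.1, 25.1 and 24.3 CPM in control and at 33.3, 64.4, 47.5, 36.5 and 77.3 CPM in Trpm7 cKO libraries, giving a log2 fold change of 0.81 (SE 0.24, adjusted p = 0.00753 from edgeR). All Trpm7 cKO libraries were below control for Atp5g1 and above control for Atp5g2. The 95% intervals of the 3 genes, -2.57 to -1.86 for Atp5g3, -1.15 to -0.56 for Atp5g1 and 0.35 to 1.28 for Atp5g2, were apart from each other. Of the counts of the 3 genes together, Atp5g3 took 93.1 to 94.96% in control and 76.5 to 87.4% in Trpm7 cKO libraries, Atp5g1 4.56 to 6.08% and 9.63 to 15.1%, and Atp5g2 0.481 to 0.827% and 2.94 to 9.15%. Atp5g2 was not called when counts were scaled to the MuSC identity markers (log2 fold change 0.46), which put the median of all tested genes at -0.36. Of the last 500 bases, 30.2% of 31-base words of Atp5g2 and 27.1% of Atp5g1 occur in other genes.

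**Figure D3:**
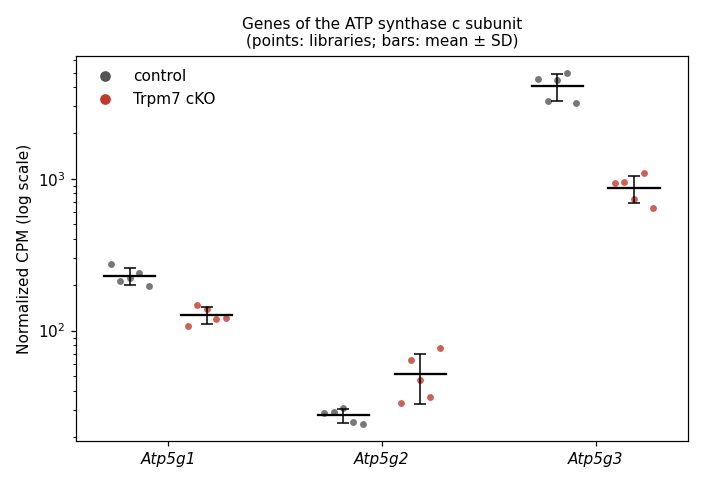
Normalized CPM (vertical axis, log scale) of the 3 genes of the ATP synthase c subunit in 5 control (grey) and 5 Trpm7 cKO (red) libraries, with mean and SD. Atp5g3 and Atp5g1 are lower and Atp5g2 is higher in every Trpm7 cKO library than in every control library.

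The regions before the RefSeq starts of these 3 genes (GRCm38.p6) are given because the genes share a product and differ in response. Each runs up to the first base of an exon that GENCODE annotates for the gene, or to the start. In Atp5g3, capitals mark a match, on the other strand, to TNAAGGTCA, the letters bound by oestrogen-related receptors (ERR), regulators of mitochondrial genes. Atp5g1 held none of the 4 motifs searched, and Atp5g2 held GCATGCGC in bases nearer to the start than those printed.
Atp5g3, chr2:73911327-73911576, minus strand: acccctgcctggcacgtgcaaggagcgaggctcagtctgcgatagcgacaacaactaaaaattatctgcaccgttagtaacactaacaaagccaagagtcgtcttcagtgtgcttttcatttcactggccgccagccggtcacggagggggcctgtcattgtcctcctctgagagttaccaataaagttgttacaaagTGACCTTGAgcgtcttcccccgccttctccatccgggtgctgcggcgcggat
Atp5g1, chr11:96075671-96075881, minus strand: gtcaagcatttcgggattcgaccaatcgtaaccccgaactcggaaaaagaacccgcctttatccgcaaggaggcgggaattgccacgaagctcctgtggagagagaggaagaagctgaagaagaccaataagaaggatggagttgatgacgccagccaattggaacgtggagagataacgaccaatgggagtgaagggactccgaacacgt
Atp5g2, chr15:102671128-102671297, minus strand: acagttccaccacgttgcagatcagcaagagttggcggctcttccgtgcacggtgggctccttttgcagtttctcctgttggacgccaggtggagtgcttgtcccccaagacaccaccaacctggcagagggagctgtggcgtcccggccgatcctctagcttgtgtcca

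The motifs were looked for on both strands of the 250 bases before the start, in 49 members with a RefSeq promoter. GCATGCGC was found in 6 members (12.2%; Atp5g2, Atp5k, Atp5l, Cox6a1, Cycs and Sdhb) and in 2.56% of 27025 genes. CCGGAAG, the letters of GA-binding protein (GABP), was found in 13 members (26.5%) and in 7.83% of genes. TNAAGGTCA was found in Atp5g3 alone (2.04%, against 1.3% of genes), and TGACGTCA in Cycs and Uqcrfs1 (4.08%, against 1.77%). Among the 21 lower members with a promoter, 3 held GCATGCGC and 4 CCGGAAG, and among the 21 other tested members 3 and 7 did. A match is a run of letters and not a measured binding site.

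The catalytic head of ATP synthase was lower in 5 of its 6 genes, counting the stalk subunit Atp5o with it. Atp5b, the catalytic beta subunit, was at 878, 814, 805, 930 and 817 CPM in control and at 532, 512, 446, 490 and 370 CPM in Trpm7 cKO libraries, giving a log2 fold change of -0.84 (SE 0.13, adjusted p = 3.17e-05 from edgeR). Atp5a1, the alpha subunit, was at 879 to 953 CPM in control and 524 to 678 CPM in Trpm7 cKO libraries, giving a log2 fold change of -0.63 (SE 0.13, adjusted p = 3.69e-04 from edgeR). Both showed no overlap and a tight control group. Atp5c1, the turning gamma subunit, had a log2 fold change of -0.86 (adjusted p = 0.00673 from edgeR), with 277 to 424 CPM in control and 60.7 to 264 CPM in Trpm7 cKO libraries, replicate 5 being far below the other 4. With the leukocyte covariate it was at 0.45 and was not called (adjusted p = 0.703 from edgeR). The delta subunit Atp5d had -0.76 and Atp5o, which ties the head to the stalk, -0.79.

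Atp5e, the epsilon subunit of the same central stalk, went the other way. It was at 236, 205, 212, 200 and 232 CPM in control and at 334, 313, 475, 302 and 590.5 CPM in Trpm7 cKO libraries, all above control. On the log2 scale the change was 0.86 (SE 0.17, adjusted p = 3.72e-04 from edgeR). Trpm7 cKO replicates 3 and 5, the shallowest libraries, were highest, and without both the value was 0.55 (adjusted p = 0.00242 from edgeR). Scaled to the MuSC identity markers, it was 0.51 and was not called (adjusted p = 0.0568 from edgeR), with the median of all tested genes at -0.36. Atp5l, subunit g of the membrane part, had a log2 fold change of 0.43 (adjusted p = 0.0411 from edgeR) with overlapping groups, at 87.9 to 107 and 101 to 186 CPM. Its call was lost without any one of control replicates 2, 3 or 4 or Trpm7 cKO replicates 1, 3 or 5 (adjusted p between 0.0574 and 0.162 in edgeR).

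In the peripheral stalk and membrane part, Atp5h, subunit d, was at 497 to 652 CPM in control and 290 to 396 CPM in Trpm7 cKO libraries (log2 fold change -0.80, adjusted p = 6.36e-05 from edgeR), with 48.9% of its 31-base words near the 3′ end found in other genes. Atp5mpl, a small accessory subunit, had -0.44 (adjusted p = 0.0116 from edgeR). Subunit b, Atp5pb, had -0.36 (adjusted p = 0.0546 from edgeR) and was called lower by DESeq2 (adjusted p = 0.0414) and limma-voom (adjusted p = 0.0386). Atp5j (-0.31), Atp5md (-0.26), Atp5k (-0.10) and Atp5j2 (0.27) were not called. The 2 accessory subunits that link ATP synthase dimers, Atp5k and Atp5l, therefore had values on both sides of 0.

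By role, 3 of 11 tested assembly factors were lower and 0 higher (median -0.42), and 22 of 42 tested subunits, cytochrome c included, were lower and 3 higher (median -0.43), beside the 24.1% of all tested genes that were lower and the 24.6% that were higher. Assembly factors of complexes III to V with symbols outside the rule had 7 of 14 tested genes lower and 0 higher, with a median of -0.57. They included Coa7, a complex IV factor (45.2 ± 11.7 and 6.80 ± 4.28 CPM, SD, n = 5 each, log2 fold change -2.58), Lrpprc, which stabilises mitochondrial mRNAs (361 ± 51.4 and 115 ± 29.0 CPM, SD, n = 5 each, -1.62), and Tmem70, a complex V factor (-1.03). Of 36 tested subunit genes of complex I, 8 were lower and 5 higher, with a median of -0.11. The shares of lower genes among the assembly factors within the rule and in complex I were near that background, and the difference between the complexes was not tested.

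Transcripts of mitochondrial DNA for complexes III, IV and V did not move as 1 group. mt-Cytb, the cytochrome b of complex III, was lower, at 15301 ± 5165 and 5515 ± 2702 CPM (SD, n = 5 each), a log2 fold change of -1.47 (adjusted p = 0.00192 from edgeR). mt-Co2, a copper-holding subunit of complex IV, was higher (log2 fold change 0.79, adjusted p = 0.0235 from edgeR) at a far lower level, 45.2 ± 20.3 and 84.8 ± 31.7 CPM (SD, n = 5 each). For both mt-Cytb and mt-Co2 the libraries of the genotypes overlapped. mt-Co1 (-0.35) and mt-Atp6 (0.35) were not called, and mt-Co3 and mt-Atp8 were not tested. All mt- genes took 12.04 to 16.5% of the counts in control and 8.82 to 10.6% in Trpm7 cKO libraries.

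Markers of other cells were higher in Trpm7 cKO libraries. The 30 leukocyte markers summed to 475 to 793 CPM in control and 1612 to 6957 CPM in Trpm7 cKO libraries, where 22 were tested, 21 of them past both thresholds. The pan-leukocyte gene Ptprc was at 8.003 ± 4.70 and 56.7 ± 26.1 CPM (SD, n = 5 each). At 0 in all control libraries were 3 markers, the T cell gene Cd3e, the B cell gene Cd79a and the neutrophil gene Cxcr2. These 3 had at most 1 count in a Trpm7 cKO library and were not tested, so they show no difference between genotypes. Of the other lists, 3 of 3 tested erythroid, 2 of 2 endothelial and 5 of 6 fibroadipogenic and matrix markers were higher, with summed ranges of 1.99 to 178 and 146 to 3274 CPM, 5.36 to 55.6 and 105 to 563 CPM, and 1410 to 2647 and 2623 to 5194 CPM. Differentiating muscle markers went down with the members, with 6 of 8 tested lower and sums of 1700 to 2136 and 376 to 680 CPM. Of all tested genes, 24.6% were higher, 24.1% were lower and 8.49% were higher past both thresholds. Trpm7 cKO replicate 2, with the lowest leukocyte sum of 1612 CPM, had 11664 CPM of members, and replicate 4, with the highest of 6957 CPM, had 11699 CPM. The part of other cell types in the members' lower level was not tested beyond the covariate.

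**Figure D4:**
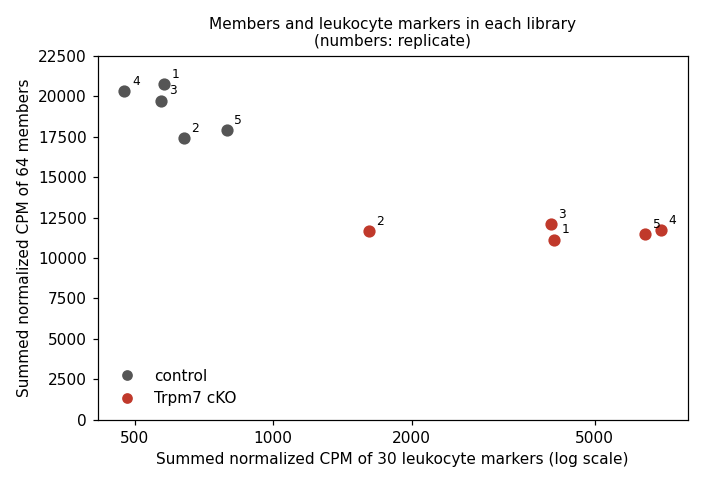
Summed normalized CPM of the 64 members (vertical axis) against that of 30 leukocyte markers (horizontal axis, log scale) in each library, control in grey and Trpm7 cKO in red, numbered by replicate. The Trpm7 cKO libraries lie between 11135 and 12079 CPM of members over leukocyte sums from 1612 to 6957 CPM, and the control libraries between 17383 and 20754 CPM.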

How the data were processed

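RNA-seq libraries of 5 control and 5 Trpm7 cKO samples of sorted MuSCs were compared. Per the submitters' processing notes and the study's methods, the authors used UMI-tools 1.1.4, Trim Galore 0.6.10, HISAT2 2.2.1 on GRCm38 and featureCounts 2.0.6, removed UMI duplicates and deposited whole-number counts per gene without normalization. The annotation release and strand setting are not given in the sources used here. Of symbols listed on more than 1 line, the line with the larger total was used (24620 entries, 24608 symbols).

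Groups and replicate numbers came from the sample titles. Counts were tested with edgeR 4.0.16 (R 4.3.3): filterByExpr (minimum count 10, minimum total 15), TMM factors, robust quasi-likelihood F test on genotype and Benjamini-Hochberg adjustment over 7753 genes. Called means an adjusted p below 0.05, and the second threshold is a log2 fold change of 1.5. Normalized CPM are counts divided by the TMM-scaled library size. Library sizes of 205986 to 1097709 limit precision, and intervals and limits cover counting error or the spread between libraries only.

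The genes named were those past both thresholds, the 3 lowest and 2 highest called per complex, the highest in level per complex, the main catalytic subunits and paralogue pairs, and other members are given for completeness. Members and lists were chosen with earlier results of these data known. Positions and 3′-end sharing came from GENCODE M21 (61 of 64 members found) and promoters from RefSeq, GRCm38.p6 (49 of 64). Python 3.11.15 and matplotlib 3.10.9 drew the figures.

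Alternatives were DESeq2 1.42.0, limma-voom (limma 3.58.1), RLE factors, total counts only, scaling to MuSC identity markers, no filter, thinned counts, the replicate number as a block, a leukocyte covariate and each library left out. After the data were seen, leaving out Trpm7 cKO replicates 3 and 5 together and summing Trpm7 cKO replicates 4 and 5 were added. Protein sequences were not used here.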

Additional observations from a re-analysis of the deposited data

Results flagged for a closer look

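In 118 groups of 5 libraries (each of 53 tested members and the sums of each complex, of cytochrome c and of all members, in each genotype), 3 held a library far from the others by Dixon's test, and chance alone flags about 5% of groups. Uqcrq, the small complex III subunit, was at 548 CPM in Trpm7 cKO replicate 4 and at 435 to 466 CPM in the other Trpm7 cKO libraries, all below control. Cox5b, the zinc-binding subunit of complex IV, was at 379 CPM in control replicate 1 and at 289 to 315 CPM in the other control libraries. Cox14, an assembly factor of complex IV, was at 138 CPM in Trpm7 cKO replicate 5, the shallowest library, and at 48.0 to 71.2 CPM in the other Trpm7 cKO libraries.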

How the results depend on the processing

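Direction and count stayed close to those reported under DESeq2 (25 lower, 3 higher), limma-voom and RLE factors. With the leukocyte covariate 2 members were lower, 0 higher and 1 past both thresholds. Their median was -0.34, beside -0.04 for all tested genes, whose share of calls in that fit was not counted. With thinned counts 15 were lower and 1 past both thresholds, with a median of -0.34. Sdhaf4 and Cox15 could not be tested there, and Uqcrfs1 was called lower at -1.49 (adjusted p = 2.03e-07 from edgeR), just short of the fold threshold. Scaled to the MuSC identity markers, which moves the median of all genes to -0.36, 35 members were lower (6 past both thresholds), 0 were higher, the median was -0.75 (-0.40 relative to all genes), and complexes II, III, IV and V had log2 ratios of -0.91, -1.20, -0.69 and -1.29. With total counts only the median was -0.33 and complex IV was at -0.28. Without a filter 36 members were lower (6 past both thresholds), 1 was higher and the median was -0.54, beside 0.17 for all 21914 genes. The share of all genes called was not counted here for any alternative fit, so these counts have no background beside them. Leaving out single libraries gave 23 to 27 lower and 2 to 4 higher members and a median of -0.45 to -0.34, the weakest without Trpm7 cKO replicate 5. Where Trpm7 cKO replicates 3 and 5 were left out together, 27 were lower, and likewise when replicates 4 and 5 were summed. The causes of these shifts were not tested further.

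Replicate numbers did not pair the libraries (same-number correlations of -0.12 to 0.18). With the replicate number as a block, 24 members were lower and 2 higher, with a median of -0.44, and Uqcrc1 (adjusted p = 0.0535 in edgeR) and Atp5l (adjusted p = 0.0554 in edgeR) lost their call.

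Log2 fold changes changed sign as follows, none of them called. With the leukocyte covariate they were 0.45 for Atp5c1, 0.73 for Atp5j, -0.16 for Atp5j2, 0.062 for Atp5pb, -0.17 for Cox18, 0.054 for Sdhaf1, -0.69 for Sdhd, 0.34 for Uqcc1, 0.16 for Uqcr10, -0.24 for Uqcr11 and 0.0545 for Uqcrb. With total counts only they were 0.048 for Cox4i1, 0.0044 for Cox6c, 0.053 for Cox7a2, 0.05 for Uqcc2 and 0.011 for Uqcrb. With MuSC identity scaling they were -0.055 for Atp5j2, -0.27 for Cox18 and -0.21 for Uqcr11, and without a filter -0.091 for Cox18 and -0.067 for Uqcr11. With thinned counts they were 0.062 for Atp5k, 0.11 for Cox4i1, 0.058 for Cox6c, 0.0495 for Cox7a2, 0.11 for Sdhc and 0.098 for Uqcc2. Without Trpm7 cKO replicates 3 and 5 they were 0.026 for Cox5a and -0.038 for Uqcr11. Leaving out 1 library in turn gave ranges across 0 for Cox18 (-0.13 to 0.24), Cox4i1 (-0.10 to 0.0027), Cox7a2 (-0.14 to 0.013) and Uqcr11 (-0.0024 to 0.23).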
